A study of Caenorhabditis elegans with 4 samples.

Results

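Transcripts of the vacuolar proton pump, of the lysosome and of autophagy were examined in early adult Caenorhabditis elegans that had been starved as hatchlings. The group holds 54 genes of 13758 rows in the deposited table. They were chosen by name: genes called vha, atg, lgg or epg with a number, and bec-1, unc-51, vps-34, hlh-30, sqst-1, lmp-1, lmp-2, cup-5, scav-3, laat-1, ctns-1 and rab-7, each with at least 1 CPM (the depth-scaled unit of that table) in at least 2 of the 4 libraries. All 54 genes found by name passed that filter, so none was lost to it. The proton pump supplied 19 of them, autophagy 27, and the lysosome, its tethering GTPase and its transcription factor the other 8.

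The comparison was between wild type, strain N2 (Bristol), and the strain GG14, which carries the mutation fasn-1(g14). FASN-1 is the enzyme that builds fatty acids. Each group had 2 biological replicates, numbered 3 and 4, and every library was made from whole animals. Animals of both groups had first been kept as hatchlings without food for 8 days at 20 °C, in buffer at 1 egg per µl, so no group in this comparison was unstarved. Survivors, 750 live animals a sample, then fed on HT115 bacteria with an empty vector, on plates with 25 µg/ml carbenicillin and 1 mM IPTG, for about 68 hours until eggs were seen. The mutant carries its allele in every cell, and how much enzyme activity the allele leaves was not analysed here.

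The vacuolar proton pump is a rotary machine that spends ATP to acidify lysosomes and other compartments. Its V1 sector, in the cytosol, hydrolyses ATP, and its V0 sector, in the membrane, carries the protons through a ring of small c subunits that turns against the large a subunit. Autophagy wraps cytoplasm in a double membrane and delivers it to these acid lysosomes, and HLH-30, the worm counterpart of mammalian TFEB, is a transcription factor known for switching on genes of both systems when food is short. Arrested worm larvae depend on autophagy to survive starvation.

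The libraries held 13960509 to 15889424 reads, recovered from the steps of the deposited values. For the 54 genes the counts ran from 16 reads (atg-10) to 9802 reads (vha-13), and 51 genes had at least 200 reads in every library. The transcript of fasn-1 itself was at 369 and 410 CPM in wild type and 353 and 285 CPM in the mutant, with a log2 change of -0.29 (SE 0.11, limma, adjusted p = 0.1196), so its level does not check the genotype. The mutant libraries lay further apart than the wild-type libraries, with a Pearson correlation of log2 values across genes of 0.988 against 0.995. Genes of pharyngeal muscle and neurons were much lower in the mutant. By limma at an adjusted p below 0.05, 5 of 6 pharyngeal markers and 8 of 8 neuronal markers fell, against 10.7% of all genes.

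Of the 54 genes, 1 rose, 2 fell and 51 did not pass the test (limma on log2(CPM + 1), Benjamini-Hochberg adjusted p below 0.05 over 12977 genes). That is 5.56% of the group, whereas 15.1% of all genes tested were called, 4.41% higher and 10.7% lower. The intestinal pump subunit vha-6 rose 1.49-fold. The transcription factor hlh-30 and the pump subunit vha-5 fell, to 0.559 and 0.713 of the wild-type mean. edgeR and DESeq2 on the recovered reads called the same 3 genes and no other of the 54, against 10.4% (3.38% higher, 7.04% lower) and 12.1% (3.91% higher, 8.15% lower) of all genes tested. At an unadjusted p below 0.05, 9 of the 54 passed, against 32.9% of all genes.

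The median log2 change of the 54 genes was 0.02, and that of all genes tested was 0.00. The libraries of the groups did not overlap for 30 of the 54 genes, or 55.6%, against 64.0% of all genes, with 20 genes higher and 10 lower in the mutant (31.2% and 32.9% of all genes). Small changes depended on the scaling of the columns: after scaling to equal totals 41 of the 54 genes kept their direction, and after scaling to equal medians 43 did. A gene past no threshold may still have changed, so the width of each interval matters. For 45 of the 51 genes not called, the 95% interval of the log2 change lay within a 1.5-fold change in either direction, and for 11 within 1.2-fold. The 6 with wider intervals were unc-51, vha-7, epg-2, sqst-1, atg-10 and lmp-2, and all 51 intervals lay within 2-fold. These are folds of CPM + 1, which are smaller than folds of CPM for a gene near 1 CPM, such as atg-10.

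**Figure D1:**
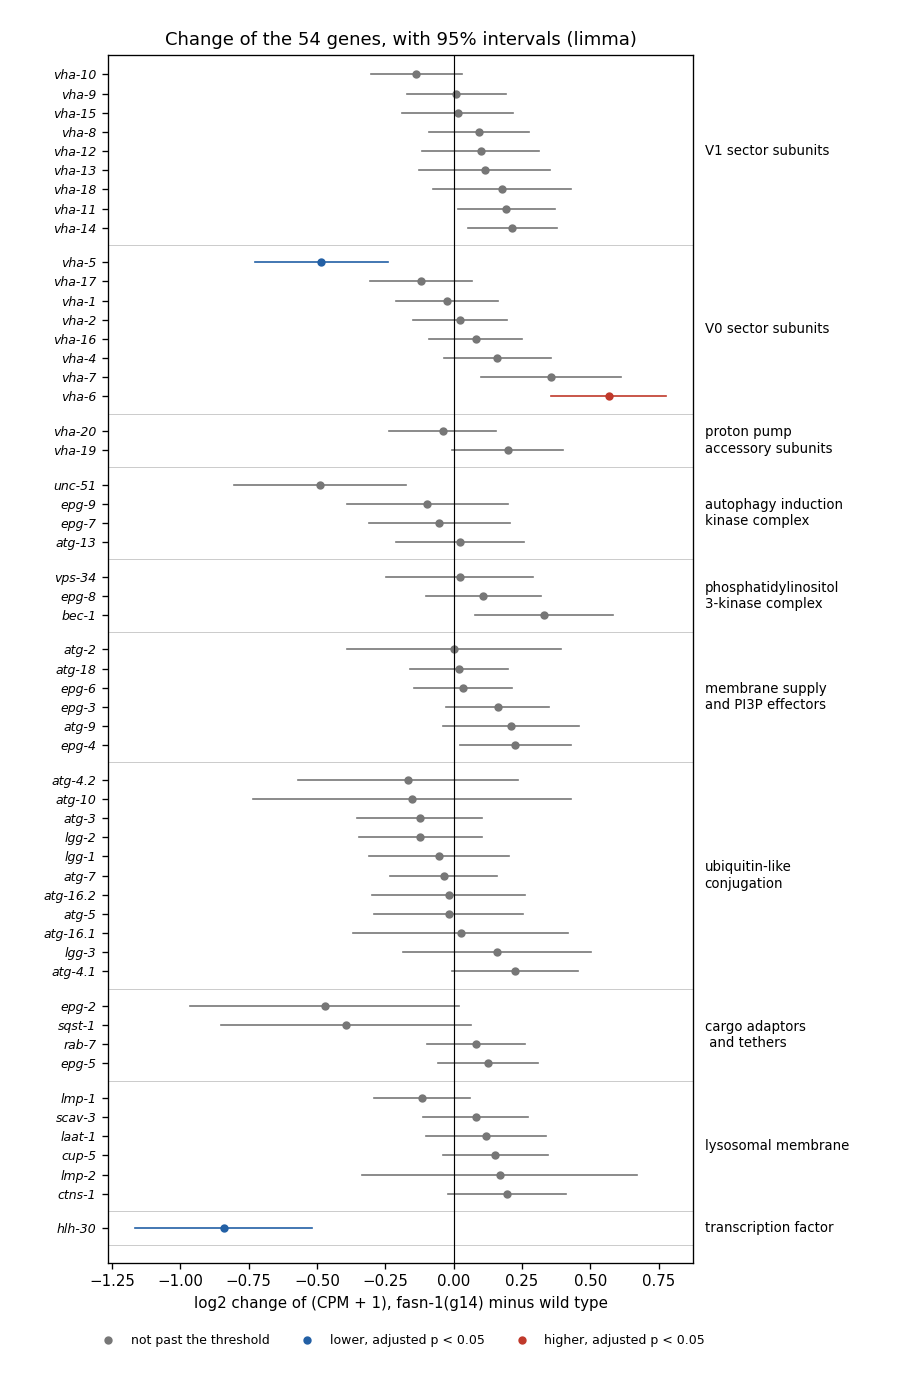
Log2 change of (CPM + 1), fasn-1(g14) minus wild type, for each of the 54 genes, grouped by role, with 95% intervals from limma over 2 libraries per group. Only vha-6 lies past the threshold on the higher side, and hlh-30 and vha-5 on the lower side, while most intervals are narrow and span 0.

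In the V1 sector, the ATP-hydrolysing head and stalk, 0 of 9 subunits passed by limma, edgeR or DESeq2. Of all genes tested, these called 15.1%, 10.4% and 12.1%. By limma 2 subunits had an unadjusted p below 0.05, against 32.9% of all genes. The median log2 change of the 9 was 0.10. The catalytic A subunit vha-13 stood at 548 and 519 CPM in N2 against 524 and 635 CPM in fasn-1(g14), and the B subunit vha-12 at 329 and 321 against 321 and 377 CPM. For both genes, mutant replicate 3 lay level with wild type and replicate 4 above it. The E subunit vha-8, part of the peripheral stalk, had the highest level per exon length of the sector, at 309 CPM per kb averaged over the 4 libraries. The D subunit vha-14, in the central rotor, came closest to the threshold, with 185 and 183 CPM in N2 against 213 and 214 CPM in fasn-1(g14). Its log2 change was 0.21 (SE 0.07, limma, adjusted p = 0.0782), and its groups did not overlap. As deposited, the G subunit vha-10 was the only V1 gene with a negative change, at -0.14 (SE 0.07). The H subunit has 2 genes, and vha-18 made 41.7% and 38.9% of their summed level per kb in wild type, and 42.9% and 43.2% in the mutant.

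In the V0 sector the c subunits vha-1 and vha-2 had the highest levels per kb of exon of the pump and differed little between the groups. They averaged 517 and 513 CPM per kb, and the lowest pump gene, vha-5, averaged 21.02 CPM per kb. The signal of vha-2 was measured at 493 and 487 CPM in N2 against 483 and 514 CPM in fasn-1(g14), with a log2 change of 0.02 (SE 0.07, 95% interval -0.15 to 0.19). The c subunit vha-3, whose protein has the same sequence as that of vha-2, was not analysed here, so reads could be shared between the genes. Exons of vha-2 also share 219 bases, 22.7% of its exon length, with R10E11.6 on the same strand. That gene had means of 20.7 CPM in wild type and 23.0 CPM in the mutant. The related c subunit vha-4 had a log2 change of 0.16, the d subunit vha-16 of 0.08, and the e subunit vha-17 of -0.12, and none of them passed.

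The a subunit, which holds the proton channels and steers the pump to its membrane, is encoded by 4 genes in the worm, and here they diverged. The gene vha-6 (VW02B12L.1, chromosome II, 11435210 to 11438452, minus strand, WBcel235), known for the apical membrane of the intestine, was measured at 213 and 199 CPM in N2 against 285 and 327 CPM in fasn-1(g14). Both mutant libraries were above both wild-type libraries. Its log2 change was 0.57 (SE 0.09, 95% interval 0.36 to 0.78, limma, adjusted p = 0.0132). The gene vha-5 (F35H10.4, chromosome IV, 8303968 to 8307371, plus strand), known from the excretory canal cell and the epidermis, went the other way. It stood at 75.2 and 70.5 CPM in N2 against 48.3 and 55.5 CPM in fasn-1(g14), again without overlap, a log2 change of -0.48 (SE 0.10, limma, adjusted p = 0.0271). For vha-7, known from the epidermis and uterus, the values were 114 and 109 CPM in N2 against 128 and 159 CPM in fasn-1(g14), with a log2 change of 0.36 (SE 0.11) that did not pass (limma, adjusted p = 0.0676). The neuronal and widely expressed a subunit unc-32, which the name rule leaves out, stood at 229 and 219 CPM against 225 and 234.7 CPM, a log2 change of 0.04 (SE 0.07) that was negative after scaling to equal totals.

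**Figure D2:**
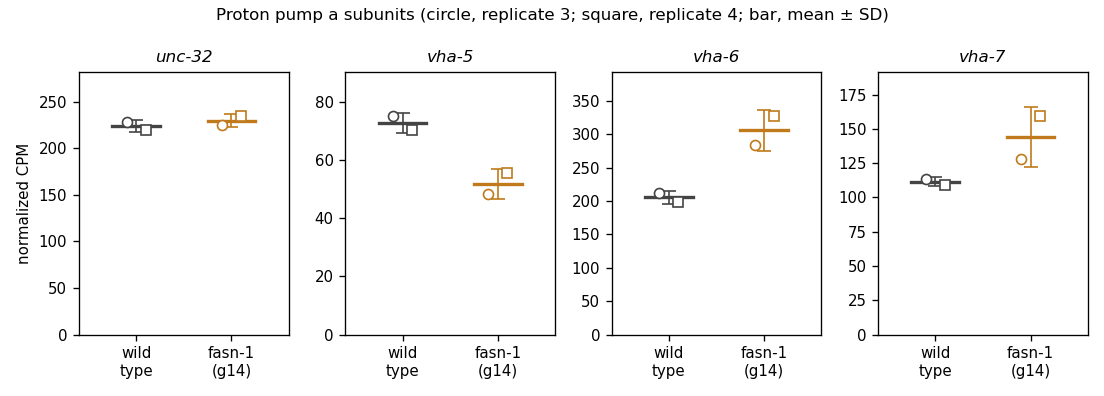
Normalized CPM of the 4 genes for the a subunit of the proton pump in each library (circles, replicate 3; squares, replicate 4; bars, mean ± SD over 2 libraries), each panel on its own axis from 0. Both mutant libraries lie above wild type for vha-6 and below it for vha-5, and the groups overlap for unc-32.

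Set against each other, the ratio of vha-6 to vha-5 signal was 2.83 and 2.82 in the wild-type libraries and 5.89 and 5.90 in the mutant libraries. The ratio joins genes already seen to diverge and is a description. With 2 libraries a group, an exact permutation test cannot give a p-value below 0.333, so it could not decide. As a share of the summed a-subunit level per kb, vha-6 made 40.1% and 39.6% in wild type and 48.7% and 49.4% in the mutant. The share of vha-5 was 12.9% and 12.8% in wild type and 7.52% and 7.62% in the mutant, and that of unc-32 went from 32.1% and 32.6% to 28.7% and 26.4%. In whole-animal RNA, fewer cells of a type and less RNA per cell cannot be told apart. For the marker counts that follow, limma called 4.41% of all genes tested higher and 10.7% lower, and 32.9% had an unadjusted p below 0.05. Of the intestine markers, 1 of 6 rose (ges-1, an intestinal esterase, log2 change 0.59), with a median log2 change of 0.32. Of the 6 changes, 4 were above 0 and 2 below, those of ifb-2 (-0.005) and elt-7 (-0.08). The summed level, mostly act-5, ran from 570.5 to 595 CPM in wild type and from 660 to 786 CPM in the mutant, with none at 0. Of the excretory canal markers, 0 of 5 passed by limma (2 at an unadjusted p below 0.05), with a median log2 change of -0.38, sums of 92.7 to 100.7 CPM in wild type and 74.3 to 86.3 CPM in the mutant, and none at 0. In the epidermis list 2 of 5 rose (col-19 and col-140) and 1 fell (dpy-7), with a median log2 change of -0.03. Of the 5 changes, 2 were above 0 and 3 below, so the list had no common direction. Its sums, mostly col-140 and col-19, ran from 1311 to 1499 CPM in wild type and from 2287 to 2558 CPM in the mutant. None of its genes was at 0. The part of these marker lists in the changes of vha-6 and vha-5 was not tested.

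Both calls have limits. Without wild type replicate 4 the call of vha-6 was lost (limma, adjusted p = 0.0854), and that of vha-5 was lost without wild type replicate 3 or 4 (limma, adjusted p = 0.169 and 0.122) and with columns scaled to equal medians (0.141), a scaling that moves the median of all genes to a log2 change of 0.12. Exons of vha-5 share 57 bases, 1.92% of its exon length, with F35H10.10 on the other strand, which cannot be told apart with a kit that does not mark strand, and F35H10.10 went from a mean of 44.1 to 27.1 CPM.

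The accessory subunits help the pump to assemble and reach its place. The gene vha-19, the counterpart of mammalian Ac45, was measured at 245 and 235.2 CPM in N2 against 257 and 295 CPM in fasn-1(g14), a log2 change of 0.20 (SE 0.09, limma, adjusted p = 0.160). The gene vha-20, related to the mammalian prorenin receptor, had a log2 change of -0.04 (SE 0.08), and its groups overlapped. Over the whole pump, 1 of 19 genes rose and 1 fell, or 10.5% called, against 15.1% of all genes tested (4.41% higher and 10.7% lower).

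HLH-30 had the largest change of the 54 genes. Its gene (W02C12.3, chromosome IV, 4014793 to 4034951, minus strand) was measured at 116 and 132 CPM in N2 against 78.9 and 59.3 CPM in fasn-1(g14). Both mutant libraries lay well below both wild-type libraries, and the mutant libraries differed by more than the wild-type ones. The log2 change was -0.84 (SE 0.14, 95% interval -1.17 to -0.52, limma, adjusted p = 0.0148). Leaving out each library in turn gave log2 changes from -1.04 to -0.64. Modelling the variance without its trend on level took the call from hlh-30, vha-6 and vha-5 alike (limma, adjusted p = 0.0696, 0.0733 and 0.0924), and then 0 of the 54 genes passed and 5 had an unadjusted p below 0.05.

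The gene hlh-30 is active in many tissues, among them intestine, neurons and pharynx. The 8 neuronal markers fell with a median log2 change of -1.17, from sums of 396 to 426 CPM in wild type to sums of 148 to 217 CPM in the mutant. The 6 pharyngeal muscle markers had a median of -2.45, with sums of 1079 to 1161 CPM in wild type and 127 to 278 CPM in the mutant. In both lists, as for hlh-30, mutant replicate 4 was lower than replicate 3, and no marker was at 0. The 6 intestine markers had a median above 0, at 0.32, with 0.18 in mutant replicate 3 and 0.33 in replicate 4. The part of these lists in the fall of hlh-30 was not tested.

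Among membrane proteins of the lysosome, 0 of 6 passed by limma, edgeR or DESeq2, which called 15.1%, 10.4% and 12.1% of all genes. At an unadjusted p below 0.05 by limma, 0 of 6 passed, against 32.9% of all genes. The LAMP-like gene lmp-1 was the most abundant of the 6, at 141 CPM per kb. It stood at 150.1 and 157 CPM in N2 against 144 and 139 CPM in fasn-1(g14). Its log2 change was -0.12 (SE 0.07), or 0.01 after scaling to equal medians, and as deposited the other 5 were positive, from 0.08 for scav-3, the LIMP-2 counterpart, to 0.19 for ctns-1, the cystine exporter. The calcium channel gene cup-5, the counterpart of mucolipin, was measured at 96.7 and 99.6 CPM against 105 and 113 CPM, with a log2 change of 0.15 (SE 0.08). The lysine and arginine exporter laat-1 had 0.12, and lmp-2, at only 5.47 to 6.56 CPM, had 0.17 with a wide interval from -0.33 to 0.67. The GTPase rab-7, which brings late endosomes and autophagosomes to the lysosome, had 154 and 151 CPM in N2 against 156 and 167 CPM in fasn-1(g14), a log2 change of 0.08 (SE 0.08) that was negative after scaling to equal totals.

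Of the 27 autophagy genes, 0 passed by limma, by edgeR or by DESeq2, against 15.1%, 10.4% and 12.1% of all genes tested. By limma 3 had an unadjusted p below 0.05, against 32.9% of all genes. The median log2 change of the 27 was 0.00, with 14 changes above and 13 below 0. The range ran from -0.49 for unc-51 to 0.33 for bec-1.

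Autophagy starts with a kinase complex, in which UNC-51, the worm ULK1, works with ATG-13, EPG-9 (ATG101) and EPG-7. The kinase gene unc-51 (Y60A3A.1, chromosome V, 19995986 to 20004485, minus strand) was measured at 66.7 and 67.1 CPM in N2 against 54.3 and 41.3 CPM in fasn-1(g14). The groups did not overlap, but the mutant libraries were far apart. The log2 change was -0.49 (SE 0.13, 95% interval -0.80 to -0.17), just short of the threshold (limma, adjusted p = 0.0501, and 0.0671 by edgeR). The log2 change was -0.68 and -0.30 without mutant replicate 3 or 4, and -0.49 and -0.48 without wild type replicate 3 or 4. UNC-51 is best known for axon growth in neurons, whose markers fell as given above, and their part was not tested. Its partners showed smaller values, with log2 changes of 0.02 for atg-13, -0.05 for epg-7 and -0.10 for epg-9.

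Next in order, the lipid kinase complex of VPS-34, BEC-1 (Beclin) and EPG-8 (ATG14) marks the membrane with phosphatidylinositol 3-phosphate (PI3P). The gene bec-1 (T19E7.3, chromosome IV, 5661141 to 5664425, minus strand) was measured at 39.02 and 44.7 CPM in N2 against 51.8 and 53.7 CPM in fasn-1(g14), so that both mutant libraries were higher. Its log2 change of 0.33 (SE 0.11, 95% interval 0.08 to 0.58) missed the threshold (limma, adjusted p = 0.0797). The change was 0.36 and 0.31 without mutant replicate 3 or 4, and 0.24 and 0.43 without wild type replicate 3 or 4. The kinase gene vps-34 had a log2 change of 0.02 (SE 0.11), and epg-8, the most abundant of the 3 per kb, had 0.11 (SE 0.09). The ratio of bec-1 to unc-51 signal was 0.585 and 0.665 in wild type and 0.954 and 1.30 in the mutant. These genes have the highest and the lowest change of the autophagy list, so the ratio is a description, and an exact permutation test could not decide here either.

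**Figure D3:**
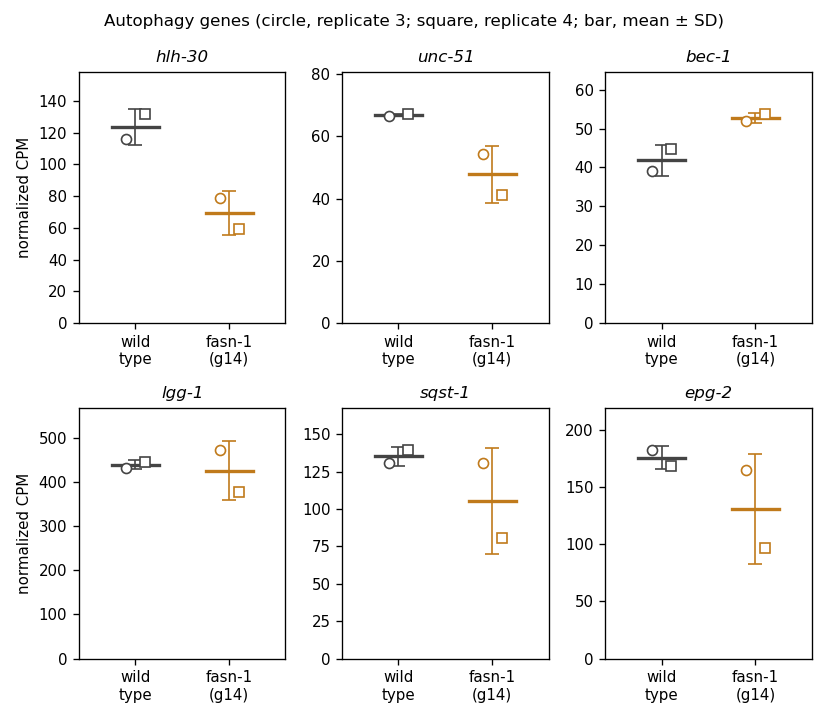
Normalized CPM of hlh-30 and 5 autophagy genes in each library (circles, replicate 3; squares, replicate 4; bars, mean ± SD over 2 libraries), each panel on its own axis from 0. The mutant libraries are both below wild type for hlh-30 and unc-51 and both above it for bec-1, whereas sqst-1 and epg-2 are far below wild type in mutant replicate 4 and close to it in replicate 3.

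Genes that feed and shape the growing membrane had 0 of 6 past the threshold by limma, edgeR or DESeq2. Of all genes tested, these called 15.1%, 10.4% and 12.1%. By limma 1 of the 6 had an unadjusted p below 0.05, against 32.9% of all genes. Each of the 6 changes was at or above 0 as deposited, with a median of 0.10. The PI3P-binding WIPI protein gene atg-18, the highest of them per kb at 105 CPM per kb, stood at 185 and 190.4 CPM against 183 and 198 CPM, a log2 change of 0.02 (SE 0.08) that was negative after scaling to equal totals. The endoplasmic reticulum proteins epg-4 (EI24) and epg-3 (VMP1) had 0.23 (SE 0.09, limma, adjusted p = 0.118) and 0.16 (SE 0.08), and the lipid scramblase atg-9 had 0.21 (SE 0.11). The lipid transfer protein gene atg-2 was measured at 102 and 119 CPM in N2 against 133 and 91.3 CPM in fasn-1(g14), with the mutant libraries on either side of wild type.

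The conjugation machinery attaches the small ubiquitin-like proteins LGG-1 (GABARAP) and LGG-2 (LC3) to the membrane lipid. Here 0 of 11 genes passed by limma, edgeR or DESeq2, which called 15.1%, 10.4% and 12.1% of all genes. By limma 0 of the 11 had an unadjusted p below 0.05, against 32.9% of all genes. The median log2 change of the 11 was -0.04. LGG-1, whose coating of autophagosomes is the usual readout of autophagy in the worm, had the highest transcript level per kb of the 54 genes, at 611 CPM per kb. It was measured at 432 and 446 CPM in N2 against 474 and 378 CPM in fasn-1(g14), with wild type between the mutant libraries. Its log2 change was -0.05 (SE 0.11, 95% interval -0.31 to 0.20). LGG-1 made 80.4% and 80.01% of the summed lgg-1 and lgg-2 level per kb in wild type and 81.4% and 80.5% in the mutant. At the other end, the E2-like enzyme gene atg-10 was at 1.08 to 1.69 CPM. The E1-like enzyme gene atg-7 was at 72.4 CPM in both wild-type libraries and at 71.2 and 69.9 CPM in the mutant, a log2 change of -0.04 (SE 0.08). The protease gene atg-4.1, which trims LGG-1, had a log2 change of 0.22 (SE 0.10), and its lower paralog atg-4.2 had -0.17 (SE 0.17), neither past the threshold.

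**Figure D4:**
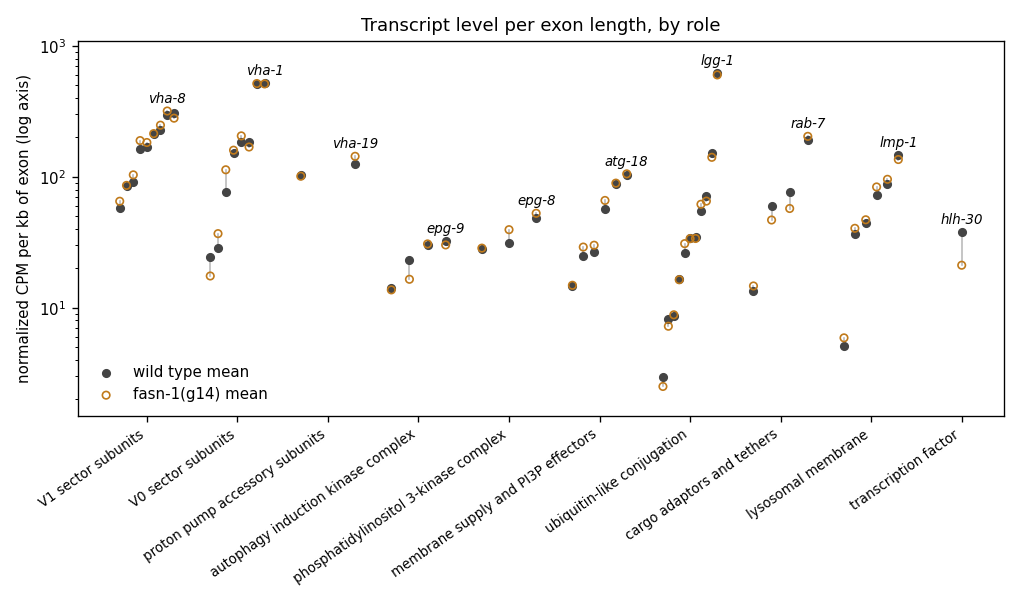
Mean normalized CPM per kb of exon in wild type (filled) and fasn-1(g14) (open) for the 54 genes by role, on a log axis, with grey lines joining the groups and the highest gene of each role named. Averaged over the 4 libraries, levels span from 2.74 for atg-10 to 611 for lgg-1. The open and filled points lie furthest apart for hlh-30 (0.559 of wild type) and vha-6 (1.49-fold), followed by vha-5, unc-51, epg-2, vha-7, sqst-1 and bec-1.

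Of the genes for cargo and tethering, the adaptor gene sqst-1 (p62), whose protein is itself eaten by autophagy, was measured at 131 and 139.7 CPM in N2 against 131 and 80.6 CPM in fasn-1(g14). Mutant replicate 3 lay level with the lower wild-type library, and mutant replicate 4 far below. The log2 change was -0.39 (SE 0.20, 95% interval -0.85 to 0.06, limma, adjusted p = 0.205), and it was -0.05 without mutant replicate 4 and -0.74 without mutant replicate 3. The nematode adaptor gene epg-2, which links protein aggregates of the embryo to autophagy, had 183 and 169 CPM in N2 against 164 and 97.0 CPM in fasn-1(g14) (log2 change -0.47, SE 0.21). The tether gene epg-5, which helps autophagosomes fuse with lysosomes, had 0.13 (SE 0.08).

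The mutant libraries differed from each other across the pump. Of the 19 pump genes, 18 were higher in mutant replicate 4 than in mutant replicate 3, with vha-17 the exception. Of the 27 autophagy genes 9 were higher there and 18 lower, and of all genes tested 6239 of 12977 were higher. The count for the pump was 15 of 19 after scaling to equal totals and 19 of 19 after scaling to equal medians, and for autophagy 6 and 16 of 27, while the counts for all genes were 5215 and 8070. The 5 widest log2 gaps between the mutant libraries were those of epg-2 (0.76), sqst-1 (0.69), atg-2 (0.54), hlh-30 (0.41) and unc-51 (0.39), all lower in replicate 4. The median absolute gap of the 54 genes was 0.14 between the mutant libraries and 0.06 between the wild-type libraries, against 0.19 and 0.12 for all genes. Oocyte markers had a median log2 change against wild type of 0.04 in mutant replicate 3 and 0.41 in replicate 4. By limma 0 of 6 passed and 1 had an unadjusted p below 0.05, against 15.1% and 32.9% of all genes. The oocyte sums were 5122 to 5478 CPM in wild type and 5591 to 7008 CPM in the mutant, with none at 0. Germ line markers had medians of 0.03 and 0.26 in mutant replicates 3 and 4, and the pump itself -0.02 and 0.16. Among related lists below, medians were higher in replicate 4 for, among others, TORC1 (0.06 and 0.20) and tethering and fusion (0.13 and 0.26). They were lower there for pump partners (0.15 and 0.07), lysosomal enzymes (0.06 and 0.04) and lysosome-related organelles (0.15 and 0.06). The part of these lists in the pump gap was not tested. Without mutant replicate 3 the median log2 change of the 54 genes was 0.059, and without mutant replicate 4 it was 0.024. Those of all genes were -0.001 and 0.003. The mutant group then had 1 library, assumed to vary like the wild-type pair. Without wild type replicate 3 or 4 the median of the 54 genes was 0.056 and 0.060, and that of all genes -0.007 and 0.001.

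**Figure D5:**
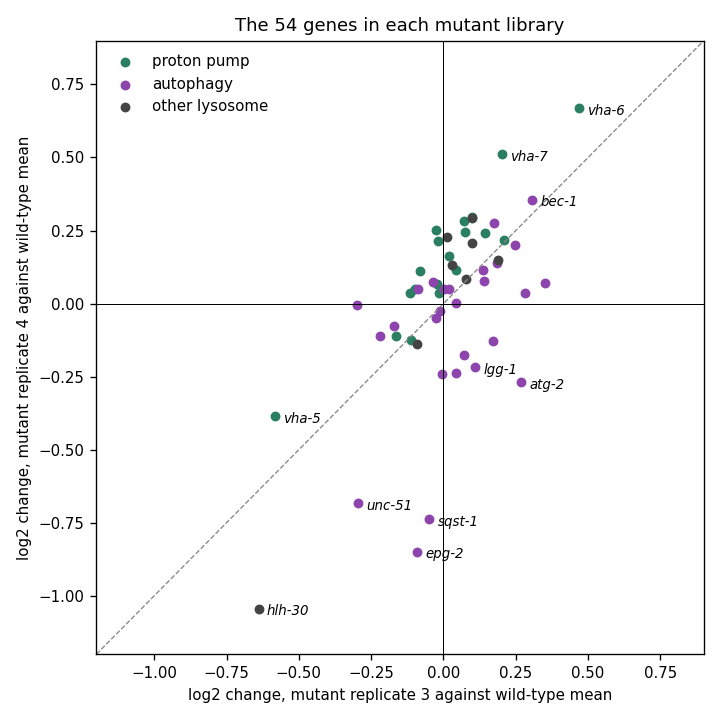
Log2 change of (CPM + 1) against the wild-type mean in mutant replicate 3 (horizontal) and mutant replicate 4 (vertical) for the 54 genes, with the dashed line marking equal change. The pump genes, vha-17 excepted, lie above the line, while sqst-1, epg-2, unc-51 and hlh-30 lie below it.

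Around these genes, 90 others with related roles were measured and tested, in lists drawn from general knowledge. For comparison with the list counts, limma called 4.41% of all genes tested higher and 10.7% lower, and 32.9% had an unadjusted p below 0.05. Of 3 pump partners, rbc-2, a rabconnectin that helps pump sectors assemble, rose from 75.8 and 74.6 CPM to 93.4 and 94.2 CPM (log2 change 0.31, SE 0.08, limma, adjusted p = 0.0412). In endosome and lysosome tethering and fusion 1 of 20 rose and 0 fell, with a median of 0.18. The gene called was vps-18, a subunit of the HOPS and CORVET tethers, at 48.1 and 47.8 CPM in N2 against 63.7 and 61.0 CPM in fasn-1(g14), and rabx-5, an activator of RAB-5, had 0.38 without passing. In the TORC1 list, the nutrient sensor that sits on lysosomes and restrains autophagy, 0 of 16 passed (limma; 1 at an unadjusted p below 0.05), with ragc-1, a Rag GTPase, at 0.25 and let-363, the TOR kinase, at 0.16.

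Lysosomal enzymes other than proteases and lipases gave 2 rises and 0 falls among 8, against 4.41% and 10.7% of all genes tested. The lysosomal DNase gene nuc-1 went from 54.7 and 53.4 CPM in wild type to 89.7 and 87.0 CPM in the mutant (log2 change 0.70, SE 0.09, limma, adjusted p = 0.00732), and the beta-galactosidase gene bgal-2 from 12.5 and 15.2 to 25.4 and 25.8 CPM (0.85, SE 0.16). Neither gene had overlapping groups. For other lysosomal transporters 0 of 13 passed (limma; 3 at an unadjusted p below 0.05), with cln-3.1, a homolog of the Batten disease gene, at 0.88 (limma, adjusted p = 0.0560) and spin-3, a Spinster homolog, at 0.67. In the list of lysosome-related organelles 0 of 9 passed, with 0 at an unadjusted p below 0.05, and its smallest p-values were those of lyst-1 (0.30) and glo-4 (0.19). Among phosphoinositide enzymes and selective autophagy 0 of 12 passed (limma; 4 at an unadjusted p below 0.05), with vps-15, the regulatory partner of VPS-34, at 0.27 and the lipid phosphatase mtm-3 at 0.22. Of 9 transcriptional regulators of autophagy, 1 fell and 0 rose: nhr-62, a nuclear receptor needed for long life under food restriction, stood at 5.40 and 6.41 CPM in N2 against 2.50 and 3.04 CPM in fasn-1(g14) (log2 change -0.87, SE 0.24, limma, adjusted p = 0.0497). The stress regulator skn-1 had 0.16. With either wild-type library left out, rbc-2, vps-18, bgal-2 and nhr-62 no longer passed, while nuc-1 did. The call of rbc-2 was also lost by DESeq2 (adjusted p = 0.0656) and, by limma, at equal totals (0.0832), at equal medians (0.0564), with a mean of at least 5 CPM (0.0551) and without the trend (0.136). That of vps-18 was lost by DESeq2 (adjusted p = 0.0603) and, by limma, at equal totals (0.0809), with a mean of at least 5 CPM (0.0516) and without the trend (0.105). That of nhr-62 was lost by edgeR (adjusted p = 0.0627) and DESeq2 (0.110) and, by limma, with a pseudocount of 0.5 CPM (0.0561), with no filter (0.0518) and without the trend (0.05005).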

How the data were processed

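The table deposited by the authors holds normalized signal per gene in CPM. The submitters' processing notes name, without roles, edgeR (3.28.1), HTSeq (0.12.4) and the aligner Bowtie2 (2.3.3.1), and their genome build is not given in the sources used here. Column totals differed, from 941734 to 1028879, so the unit is a normalized signal, not the plain CPM the design assumed. Every value was a whole multiple of a step (100% within 0.001 read), which gave back reads. Another 8 library columns were not used. Genes were named through the WBcel235 annotation. The 12977 genes that reached 1 CPM in 2 or more libraries (781 did not) were tested on log2(CPM + 1) with limma 3.58.1 (trend, R 4.3.3), and edgeR 4.0.16 and DESeq2 1.42.0 on recovered reads were alternatives. Scripts were tested on simulated data. The genes and lists were chosen with earlier results of these data known. Genes named with full values were those past the threshold, the 3 next by p, the highest per kb in each role, 9 set by name and, in related lists, up to 2 with the smallest p; others were named after their values were seen. One read was 0.0628 to 0.0676 CPM, and 3 reads 0.188 to 0.203 CPM, for counting error only.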

Additional observations from a re-analysis of the deposited data

How the results depend on the processing

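All of these counts rest on 2 libraries a group. Against 572 genes higher, there were 288 with a mean of at least 5 CPM, 361 at equal totals, 958 at equal medians and 172 without the trend, and 151 to 2346 leaving out 1 library. Against 1386 lower, there were 509 with a mean of at least 5 CPM, 545 without the trend and 913 by edgeR, and 179 to 3268 leaving out 1 library. Of the 54 genes, 1 higher became 2 at equal medians, 0 without the trend and 0 to 14 leaving out 1 library; 2 lower became 4 at equal totals, 1 at equal medians, 0 without the trend and 1 to 8 leaving out 1 library. Pump genes higher, 1, became 2 at equal medians, 0 without the trend and 0 to 9 leaving out 1 library. Autophagy genes called, 0, became 1 with a pseudocount of 5 CPM, 1 with no filter, 1 at equal totals and 0 to 8 leaving out 1 library. The median change of 0.02 became -0.070 at equal totals (all genes -0.09), 0.15 at equal medians (all genes 0.12) and 0.024 to 0.060 leaving out 1 library.

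Of the 54 genes, 41 kept their sign at equal totals and 43 at equal medians. Among the genes named by rule, signs turned at equal totals for atg-18 (-0.079), rab-7 (-0.016), vha-8 (-0.0065) and unc-32 (-0.060), and at equal medians for epg-9 (0.026), lgg-1 (0.071), lmp-1 (0.0086) and vha-1 (0.10). Leaving out 1 library gave -0.038 to 0.075 for atg-18, -0.24 to 0.043 for epg-9, -0.22 to 0.11 for lgg-1, -0.10 to 0.048 for vha-1 and -0.018 to 0.21 for vha-12. Each scaling multiplied whole columns by a constant. It moved the median change of all genes to -0.09 at equal totals and 0.12 at equal medians. The cause of the turns on leaving out 1 library was not tested.

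The labels share the replicate numbers 3 and 4 between groups, but same-numbered libraries did not deviate together (correlation -0.21). Under a replicate block, 2 of the 54 genes were higher, both of them pump genes, 5 were lower, and 3 autophagy genes were called. Of all 12977 genes tested, the block called 626 higher and 1872 lower. The block also took the limma calls of rbc-2 (adjusted p = 0.0790), vps-18 (0.0591) and nhr-62 (0.0548).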
